A study of Homo sapiens with 4 samples.

Results

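The genes described here are 10 genes by which a cell stores, takes up and exports iron, and they are followed across Huh7 and HepG2 cells with or without knockdown of COP1, an E3 ubiquitin ligase. They were taken as a list of names that covers the ferritins and their autophagy receptor (FTL, FTH1 and NCOA4), the receptors and the transporter of uptake (TFRC, TFR2 and SLC11A2), the exporter and its hormone (SLC40A1 and HAMP), and the iron regulatory proteins (ACO1 and IREB2). All 10 were found among the 46427 genes of the deposited tables. The tables carry NCBI Gene numbers without names, so the members were matched by number.

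Both lines are established, were derived from human liver tumours and are labelled hepatocellular carcinoma. Cells of each line were transfected for 5 h with 20 nM of NC-siRNA (a negative control siRNA, genotype label WT) or of COP1-siRNA (genotype label COP1 Knockdown), and RNA was taken at 48 h. All groups were kept in DMEM with fetal bovine serum, no iron salt or chelator is named for any of them, and the knockdown was transient. Poly(A) RNA of each of the 4 groups was sequenced once, so every difference within a line or between the lines compares 2 libraries, without a replicate check. A fit over all 4 libraries, with line and siRNA as terms, is given beside each comparison and is the only source of errors and p-values here.

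Iron inside a cell is held in the ferritin shell, which is built from heavy chains (FTH1) that oxidise iron and light chains (FTL) that help it to mineralise. Transferrin-bound iron enters through the transferrin receptor TFRC, leaves the endosome through SLC11A2, and leaves the cell through ferroportin, SLC40A1, the only known exporter of cellular iron. Hepcidin, the product of HAMP, is made by hepatocytes and makes cells degrade ferroportin. When iron is scarce, the iron regulatory proteins ACO1 and IREB2 bind hairpins in mRNAs, called iron-responsive elements. Bound near the 5′ end they block translation of ferritin and ferroportin, and bound in the 3′ end they protect the TFRC mRNA from decay. Much of this control acts on translation or protein, which RNA sequencing does not measure.

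A search by letters can miss such hairpins, as it did for EPAS1 below, so it does not tell which members cannot be bound. The hairpins that it found in members are shown. Each lies in 1 exon of a GENCODE 29 transcript on GRCh38 and is written 5′ to 3′ along the transcript, with the 6 loop bases in capitals. The search asked for a C, 5 bases, the loop CAGTGN and 5 bases that pair with the first 5, G-T pairs allowed, on the transcript strand alone, and 6 bases were added on each side. In the 5′ UTR of FTL, FTH1 and SLC40A1 and in the 3′ UTR of TFRC it found:
FTL, chr19:48965335-48965363, plus strand: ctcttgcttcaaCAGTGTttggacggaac
FTH1, chr11:61967574-61967602, minus strand: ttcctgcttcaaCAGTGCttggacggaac
SLC40A1, chr2:189580661-189580689, minus strand: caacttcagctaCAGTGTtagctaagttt
TFRC, chr3:196050979-196051007, minus strand: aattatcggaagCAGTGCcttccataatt
TFRC, chr3:196050575-196050603, minus strand: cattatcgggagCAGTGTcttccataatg
TFRC, chr3:196050510-196050538, minus strand: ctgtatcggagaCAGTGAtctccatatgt
TFRC, chr3:196050463-196050491, minus strand: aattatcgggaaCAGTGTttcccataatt

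The FTL and FTH1 elements shared 26 of 29 bases, and the SLC40A1 element shared 14 of 29 with FTL and 13 of 29 with FTH1. The 4 TFRC elements lay within 545 bases of the transcript. Of 19644 protein-coding genes, each searched in 1 transcript, 1.22% held at least 1 such element and 0.107% held one in the 5′ UTR. TFRC was the 1 gene among them with 4 or more. A full match, letters and pairing together, was found in 4 of the 10 members. No transcript of SLC11A2, TFR2, HAMP, NCOA4, ACO1 or IREB2 matched, which says only that letters and pairing do not occur together in them. The bases CAGTG alone were in 93.9% of the 19644 transcripts searched. The gene tables do not separate transcripts, so forms of SLC11A2 with different 3′ ends cannot be told apart.

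The values are TPM, the relative abundance of a gene's transcripts, which is scaled for gene length and can be compared between genes. The number of reads behind them is unknown, and the ratio of coverage to FPKM of HAMP, a measure of relative depth, was between 5.75 and 7.47 in the 4 libraries. The targeted gene was lower under its siRNA in each line, since COP1 had 19.7 TPM in control Huh7 and 6.18 TPM after its knockdown, and 26.9 and 16.1 TPM in HepG2. That left 31.4% of its TPM in Huh7 and 59.9% in HepG2. The liver markers ALB and AFP were present in all 4 libraries, with at least 1509 TPM of ALB and 370.3 TPM of AFP. Of 15 markers of erythroid, leukocyte, endothelial and stromal cells, 7 were at 0 in all 4 libraries, the leukocyte antigen PTPRC and the macrophage iron-recycling marker CD163 among them. Others were present. CD68, of the same macrophage and leukocyte list, was at 58.2 and 56.4 TPM in Huh7 and at 15.6 and 17.3 TPM in HepG2. In Huh7 CD14 of that list was at 4.47 and 2.24 TPM and the endothelial PECAM1 at 5.08 and 7.36 TPM, with NC-siRNA first. Other markers were higher in HepG2. The erythroid HBA1 was at 0 in both Huh7 libraries and at 1.91 and 2.84 TPM in HepG2. The stromal COL1A1 was at 0.0509 and 0.0853 TPM in Huh7 and at 2.33 and 2.47 TPM in HepG2.

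Ferritin was the most abundant part of the set, and it was far higher in Huh7. FTL (gene 2512, chromosome 19, 48963941 to 48966879, plus strand) was at 25470 TPM in Huh7 with NC-siRNA, 24141 TPM in Huh7 with COP1-siRNA, 3831 TPM in HepG2 with NC-siRNA and 4301 TPM in HepG2 with COP1-siRNA. In both Huh7 libraries no gene had a higher TPM than FTL, while in HepG2 it ranked 33rd and 24th. FTH1 (gene 2495, chromosome 11, 61964285 to 61967634, minus strand) was at 12344, 11301, 1196 and 1344 TPM in the same order of libraries. Both chains were thus higher in both Huh7 libraries than in either HepG2 library. That alone does not set them apart, since 78.5% of 15486 genes differed between the lines in the limma fit given below. Together they made up 3.78% and 3.54% of all TPM in Huh7 with NC-siRNA and COP1-siRNA, against 0.503% and 0.565% in HepG2. The 2 chains did not scale alike. FTL was 2.06 and 2.14 times the level of FTH1 in the Huh7 libraries and 3.20 times in each HepG2 library.

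NCOA4, the receptor that carries ferritin to autophagy (gene 8031, chromosome 10, 46005088 to 46030714, minus strand), differed much less. It was at 173 and 195 TPM in Huh7 with NC-siRNA and COP1-siRNA and at 140.3 and 161 TPM in HepG2. NCOA4 amounted to 1.40% and 1.73% of the FTH1 level in Huh7, against 11.7% and 12.0% in HepG2. The receptor and its cargo were therefore in very different proportion in the lines at the level of RNA.

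Among the genes of uptake, TFRC (gene 7037, chromosome 3, 196018694 to 196082123, minus strand) was at 273 and 299 TPM in Huh7 and at 109.6 and 135 TPM in HepG2, each time with NC-siRNA first. TFRC ranked above NCOA4 in Huh7 and below it in HepG2. TFR2 (gene 7036, chromosome 7, 100620416 to 100641552, minus strand), the second transferrin receptor, takes part in the sensing of iron upstream of HAMP. It was the lowest member everywhere, at 3.77, 4.20, 1.83 and 2.62 TPM. Its mean coverage was only 4.42 to 12.7 reads per base, so its values are the least well sampled of the set. TFRC exceeded TFR2 by 72.6 and 71.1 times in Huh7 and by 59.8 and 51.3 times in HepG2. SLC11A2 (gene 4891, chromosome 12, 50952263 to 51028886, minus strand) was at 17.9 and 22.6 TPM in Huh7 and at 20.1 and 21.0 TPM in HepG2. Both HepG2 values of SLC11A2 lay between those of Huh7.

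On the export side, SLC40A1 (gene 30061, chromosome 2, 189560590 to 189580811, minus strand) was at 113 and 136 TPM in the control and knockdown libraries of Huh7, and at 9.07 and 12.5 TPM in those of HepG2. HAMP (gene 57817, chromosome 19, 35282528 to 35285143, plus strand) was at 41.7 and 30.2 TPM in Huh7 and at 12.4 and 10.8 TPM in HepG2. Both genes were higher in Huh7 than in HepG2, but within each line SLC40A1 was at its higher and HAMP at its lower value with COP1-siRNA. The ratio of SLC40A1 to HAMP in Huh7 was 2.72 with NC-siRNA and 4.50 with COP1-siRNA. In HepG2 the same ratio was 0.734 and 1.16.

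The summed RNA level of the iron regulatory proteins differed little among the libraries, while each of them differed between the lines. ACO1 (gene 48, chromosome 9, 32384603 to 32454769, plus strand), which is an aconitase when it carries an iron-sulfur cluster and binds RNA when it does not, was at 27.0, 28.3, 22.3 and 21.1 TPM. IREB2 (gene 3658, chromosome 15, 78437431 to 78501456, plus strand), which is degraded when iron is plentiful, was at 48.5, 48.2, 64.5 and 66.2 TPM. IREB2 was thus higher and ACO1 lower in both HepG2 libraries. IREB2 was 1.79 and 1.70 times the level of ACO1 in Huh7 and 2.90 and 3.13 times in HepG2. Their sum lay between 75.5 and 87.4 TPM in the 4 libraries.

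**Figure D1:**
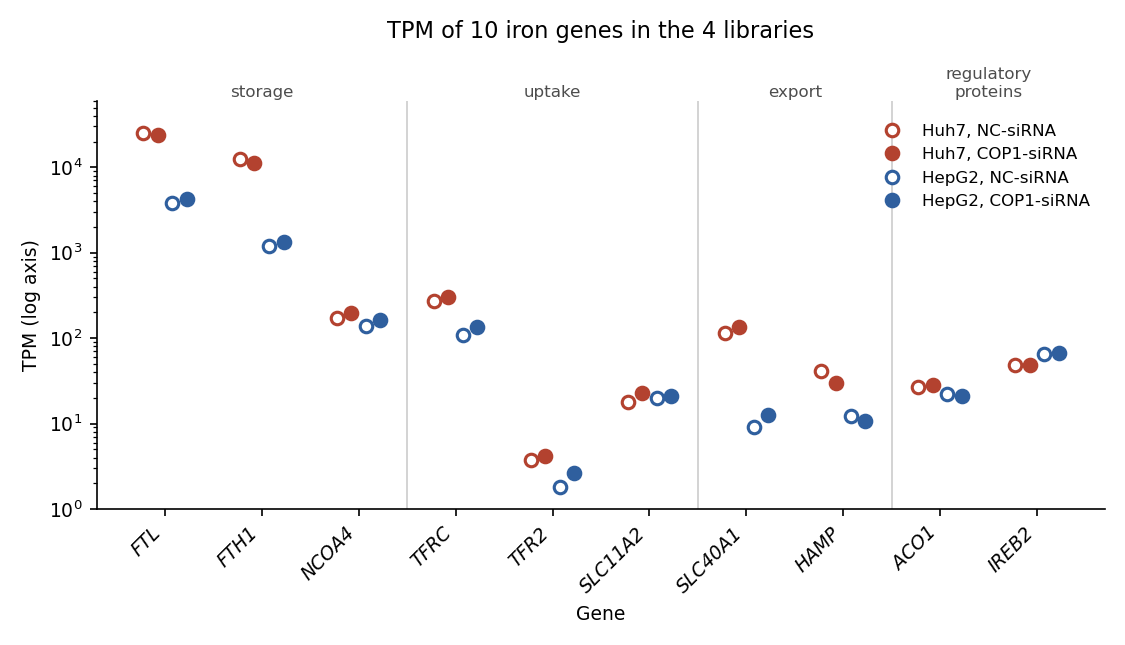
TPM of each of the 10 genes on a log axis, grouped by role, with 1 point per library (Huh7 red, HepG2 blue, NC-siRNA open, COP1-siRNA filled). FTL reached 25470 TPM in Huh7 with NC-siRNA and SLC40A1 was at 113 TPM there and 9.07 TPM in HepG2, while the points of SLC11A2, ACO1 and IREB2 lie close together.

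The order of the levels was the same in both libraries of Huh7, namely FTL, FTH1, TFRC, NCOA4, SLC40A1, IREB2, HAMP, ACO1, SLC11A2 and TFR2. In HepG2 it was FTL, FTH1, NCOA4, TFRC, IREB2, ACO1, SLC11A2 and then HAMP ahead of SLC40A1 with NC-siRNA and SLC40A1 ahead of HAMP with COP1-siRNA, with TFR2 last in both. Without a second library per group there is no spread by which neighbours in these orders could be separated. ACO1 and SLC11A2 in HepG2 with COP1-siRNA, at 21.1 and 21.0 TPM, are the closest of them.

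The first comparison asked whether knockdown of COP1 changed iron handling genes. Differences were taken as log2 of (TPM + 1) with COP1-siRNA over (TPM + 1) with NC-siRNA, a scale that understates changes of low genes, among genes that reached 1 TPM in at least 1 library of the line. All 10 members were tested in each line by this rule. None passed 2-fold in Huh7, where 1.08% of 13000 genes did, and none passed 2-fold in HepG2, where 0.934% of 14456 genes did. The target COP1 was at −1.53 in Huh7 and at −0.71 in HepG2, where it did not pass 2-fold either. At 1.5-fold the count of members was again 0 in each line, against 5.48% of genes in Huh7 and 4.43% in HepG2. The counts of members were thus near these background shares. The median difference of the members was 0.10 in Huh7 and 0.17 in HepG2, beside −0.001 and −0.008 over all genes tested. Values were above 0 for 6 of 10 members in Huh7 and 8 of 10 in HepG2, beside 49.9% and 48.3% of all genes.

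The member with the largest difference in Huh7 was HAMP, at −0.45, so that 72.4% of its TPM was left. In HepG2 HAMP was at −0.18, with 87.5% left. In Huh7 5.51% of the genes tested had a lower value than HAMP, and in HepG2 20.7% had. HAMP was the 1 member that was lower with COP1-siRNA by more than 0.1 in both lines.

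SLC40A1 had the largest difference in HepG2, at 0.42, or 1.38 times the TPM with NC-siRNA, and was at 0.26 in Huh7, or 1.20 times. Of the genes tested, 5.24% had a higher value in HepG2 and 13.6% in Huh7. TFR2 followed in HepG2 at 0.35 (1.43 times by plain TPM) with 0.13 in Huh7, and TFRC was at 0.29 in HepG2 (1.23 times) and 0.13 in Huh7 (1.09 times). SLC11A2 was at 0.32 in Huh7 (1.26 times) and 0.06 in HepG2. NCOA4 gave nearly the same value in each line, 0.17 in Huh7 and 0.20 in HepG2. These 5 genes of uptake, export and ferritin turnover were each above 0 in both lines and each under 1.5-fold.

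The ferritin chains moved little and in opposite directions in the lines. FTL was at −0.08 in Huh7 and 0.17 in HepG2, and FTH1 at −0.13 and 0.17. Their summed level was 37814 TPM in control Huh7 and 35442 TPM after knockdown, a log2 difference of −0.09. In HepG2 the sums were 5027 and 5645 TPM, a difference of 0.17. ACO1 was at 0.06 and −0.07 and IREB2 at −0.01 and 0.04. The sum of both regulatory proteins differed by 0.02 in Huh7 and 0.01 in HepG2. The sign of IREB2 in Huh7 turned with FPKM, median-of-ratios and upper-quartile scaling, at values of at most 0.05.

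A limma fit of log2(TPM + 1) over all 4 libraries, with cell line as block, gave the siRNA effect over both lines. It leaves 1 residual degree of freedom and takes each line as 1 replicate pair. None of the 10 members passed an adjusted p of 0.05, and neither did any of the 15486 genes (0%), COP1 included at −1.12 ± 0.20 (SE) with a limma adjusted p of 0.18. At an unadjusted p under 0.05 there were 4 members, SLC40A1, HAMP, TFRC and NCOA4, beside 10.8% of all genes. The smallest limma adjusted p among members was that of SLC40A1, 0.28, at 0.34 ± 0.09 (SE), higher in both lines. HAMP was at −0.32 ± 0.11 (SE), lower in both lines, with a limma adjusted p of 0.40.

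**Figure D2:**
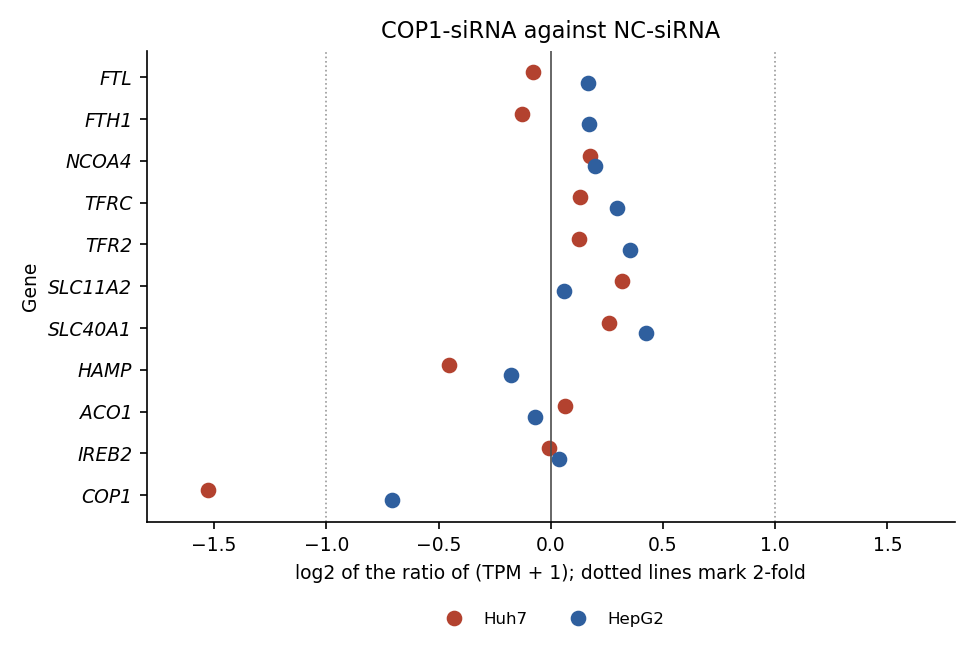
Difference of each gene with COP1-siRNA, as log2 of the ratio of (TPM + 1), for Huh7 (red) and HepG2 (blue), with COP1 itself in the last row. All 10 iron genes lie between −0.45 and 0.42, inside the dotted 2-fold lines, while COP1 is at −1.53 in Huh7 and −0.71 in HepG2.

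The second comparison set the lines beside each other, HepG2 over Huh7 on the same scale, once with the NC-siRNA libraries and once with the COP1-siRNA libraries. Each library also served in the first comparison, so the values of both comparisons are not independent. With NC-siRNA, 5 of 10 members were at least 2-fold lower in HepG2 and 0 at least 2-fold higher, beside 14.7% lower and 27.9% higher of 15055 genes tested. With COP1-siRNA the counts were again 5 and 0, beside 14.0% and 26.0% of 15126 genes. The 5 were FTL, FTH1, SLC40A1, TFRC and HAMP each time. The median of the members was −1.03 with NC-siRNA and −0.83 with COP1-siRNA, while that of all genes tested was 0.37 and 0.35, so the members were low against a background that leaned the other way. Line and library cannot be told apart with 1 library per line and siRNA.

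SLC40A1 showed the widest gap, with log2 differences of −3.51 and −3.34, which is 12.5 and 10.9 times more TPM in Huh7. FTH1 was next at −3.37 and −3.07, or 10.3 and 8.41 times, and then FTL at −2.73 and −2.49, or 6.65 and 5.61 times. Only 1.51%, 1.72% and 3.12% of the genes tested with NC-siRNA had a lower value than SLC40A1, FTH1 and FTL. These 3 are the members whose 5′ UTR holds an element printed above, and a link of the element to the difference in RNA was not tested. HAMP was at −1.68 and −1.40, or 3.38 and 2.79 times more TPM in Huh7, and TFRC, which carries its elements in the 3′ UTR, at −1.31 and −1.15, or 2.49 and 2.22 times. The mRNAs of ferritin and of TFRC were thus high together in Huh7.

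TFR2 came close to the threshold without passing it, at −0.75 and −0.52, and by plain TPM it was 2.05 and 1.60 times higher in Huh7. NCOA4 was at −0.30 and −0.28 and ACO1 at −0.27 and −0.40. SLC11A2 was at 0.16 with NC-siRNA and −0.10 with COP1-siRNA, and the first value became −0.09 with median-of-ratios and −0.05 with upper-quartile scaling. IREB2 was the 1 member above 0 in both pairs of libraries, at 0.41 and 0.45, close to the median of all genes.

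In the same limma fit the line effect, with siRNA as block, passed an adjusted p of 0.05 for 9 of 10 members, all but SLC11A2, beside 78.5% of the 15486 genes. With so large a background share this count does not set the members apart. The effects were −3.43 ± 0.09 (SE) for SLC40A1, −3.22 ± 0.09 for FTH1 and −2.61 ± 0.08 for FTL, and the largest limma adjusted p of these 3 was 4.7e-06. The libraries of a line carried different siRNAs and nothing in the labels ties them to separate cultures, so these p-values compare the libraries.

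The scale used for the lines matters for such values. Median-of-ratios scaling moved the median of all genes with NC-siRNA from 0.37 to 0.14 and upper-quartile scaling to 0.17. The share of genes past 2-fold that were higher in HepG2 went from 65.4% to 55.5% and 56.9%. The same 5 members stayed past 2-fold under every scaling tried, with NC-siRNA and with COP1-siRNA.

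**Figure D3:**
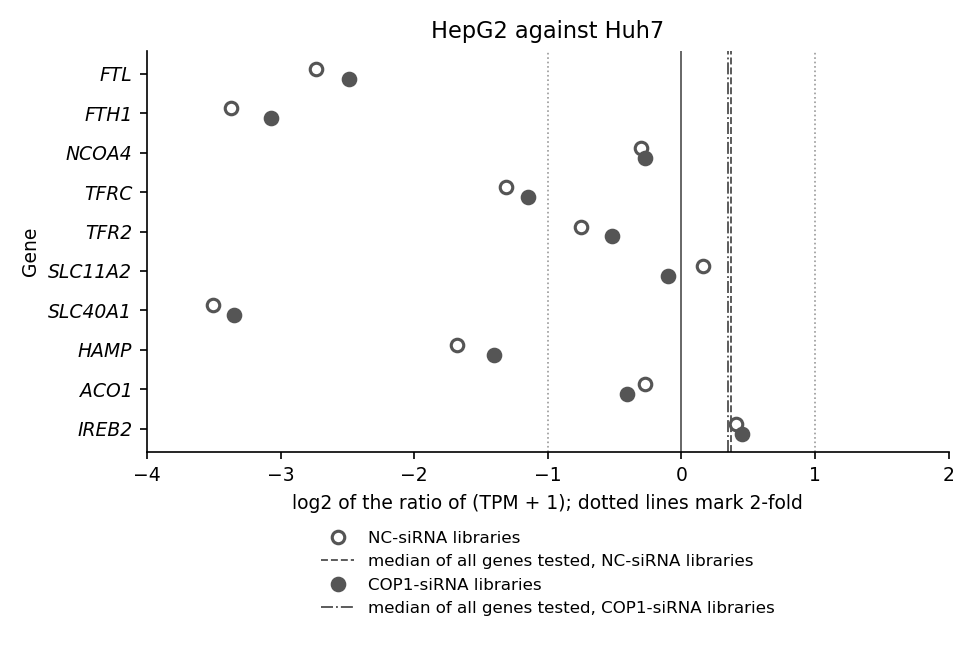
Difference of each gene between the lines, as log2 of the ratio of (TPM + 1) of HepG2 over Huh7, with the NC-siRNA libraries open and the COP1-siRNA libraries filled. SLC40A1, FTH1, FTL, HAMP and TFRC lie left of the dotted 2-fold line in both pairs, and the medians of all genes tested, 0.37 and 0.35, are drawn as dashed (NC-siRNA) and dash-dotted (COP1-siRNA) lines.

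Liver marker genes moved with these members. The summed TPM of 10 such markers was 25426 and 23795 in the Huh7 libraries and 2903 and 3412 in the HepG2 libraries. All 10 were lower in HepG2 with NC-siRNA, APOA1 only at −0.001, and 9 of 10 with COP1-siRNA, and 8 passed 2-fold in each pair. The 15 markers of other cell types summed to 68.4 and 66.5 TPM in Huh7 and 20.3 and 23.4 TPM in HepG2, most of it CD68. Fewer cells of a type and less RNA per cell cannot be told apart in such bulk samples. The part that the general difference in liver genes has in the difference of the iron genes was not tested.

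**Figure D4:**
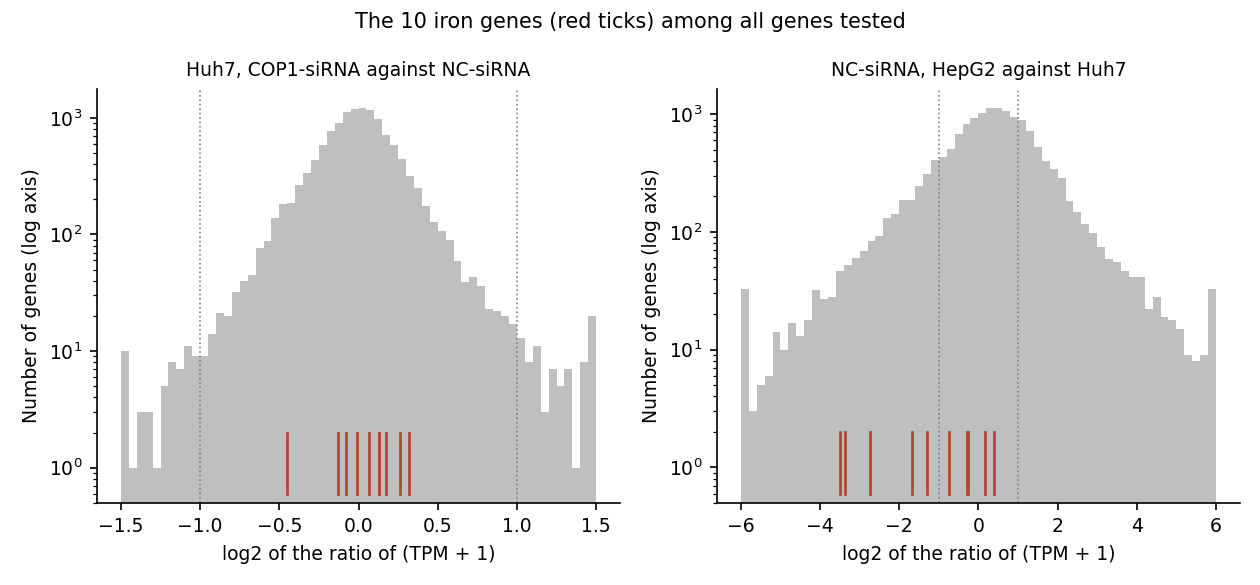
Number of genes (log axis) by log2 of the ratio of (TPM + 1), for COP1-siRNA against NC-siRNA in Huh7 on the left and HepG2 against Huh7 with NC-siRNA on the right, with the 10 iron genes as red ticks, dotted lines at 2-fold, and genes beyond either axis end counted in the outermost bars. On the left the ticks lie between −0.45 (HAMP) and 0.32 (SLC11A2) among 13000 genes, and on the right 5 of 10 ticks are in the lower tail of 15055 genes.

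Ferritin genes have many processed copies in the genome, and reads from FTH1 or FTL can align to them. The tables list 21 pseudogenes of FTH1 and 10 of FTL. The FTH1 copies summed to 141 and 140.0 TPM in Huh7 and 13.0 and 14.3 TPM in HepG2, which is between 1.06% and 1.24% of FTH1 itself in the 4 libraries. Most of it was FTH1P2, with 74.5, 79.1, 6.04 and 6.47 TPM, and FTH1P20, with 23.5, 25.6, 3.45 and 3.32 TPM. The sum of the FTH1 copies differed between the lines by −3.34 with NC-siRNA and −3.20 with COP1-siRNA, beside −3.37 and −3.07 for FTH1 itself. The sum of the FTL copies differed by −1.33 and −0.86, beside −2.73 and −2.49 for FTL. The FTL copies summed to at most 4.77 TPM, with FTLP3 at 3.37, 3.12, 0.304 and 0.584 TPM and FTLP14 at 1.15, 0.748, 0.989 and 1.15 TPM. Transcripts of these copies and misplaced reads of the parent genes cannot be told apart, and adding the copies to their parents changed no count of members past 2-fold.

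Another gene overlaps 3 of the members. BEST1 lies on the opposite strand of FTH1 and reached at most 0.0251% of its TPM, and the genes that overlap TFRC and SLC11A2 were at 0 in all 4 libraries. The start of FTL in the tables lies 1368 bases before its RefSeq start, and the annotated extent of TFRC begins 30590 bases below its RefSeq coordinate, so the models behind these TPM values were wider than the current ones.

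Around the members, 68 further genes of iron and heme handling were looked at by role, all of them present in the tables. With COP1-siRNA, 55 of them were tested in Huh7 and 58 in HepG2. In Huh7 0 passed 2-fold and 0 passed 1.5-fold, with a median of 0.05. In HepG2 1 passed 2-fold and 3 passed 1.5-fold, all higher, with a median of 0.06. Beside 0.934% and 4.43% of all genes in HepG2, these counts were near the background.

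The gene past 2-fold was HPX, hemopexin, the plasma protein that binds free heme. In HepG2 its level was 1.67 TPM in the control and 4.82 TPM after knockdown, a log2 difference of 1.12, and at 85.8 and 95.0 TPM in Huh7, a difference of 0.15. The other two past 1.5-fold in HepG2 were LCN2, a siderophore-binding protein, from 0.348 to 1.60 TPM (0.95), and EPAS1, a hypoxia-inducible factor whose mRNA is known to carry an iron-responsive element that the search above did not match, from 14.9 to 23.1 TPM (0.60). In Huh7 LCN2 was at −0.09 and EPAS1 at −0.05. All 10 liver markers were also higher with COP1-siRNA in HepG2, from a sum of 2903 to 3412 TPM, while 7 of the 10 were lower in Huh7, and their part in the values of HPX and LCN2 was not tested.

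The highest values in Huh7 were those of BLVRB, a biliverdin reductase, from 105 to 153 TPM (0.54), and CDC14A, a phosphatase, from 1.67 to 2.75 TPM (0.49). The lowest values there were SMAD6, from 14.0 to 9.40 TPM (−0.53), and SMAD5, from 30.2 to 24.0 TPM (−0.32). SMAD5 carries the bone morphogenetic protein signal that raises HAMP, and SMAD6 inhibits it. In HepG2 SMAD6 was at −0.27 and SMAD5 at 0.02. The lowest values in HepG2 were STEAP2, a metalloreductase, from 2.50 to 1.73 TPM (−0.36), and ERFE, a hormone best known from erythroid cells that lowers HAMP, from 7.17 to 5.64 TPM (−0.30). On the log2(TPM + 1) scale none of these 6 genes passed 1.5-fold.

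By role, the medians in Huh7 and HepG2 were −0.02 and 0.07 for reduction and other uptake, −0.07 and 0.03 for the control of hepcidin, 0.05 and 0.01 for iron chaperones and the control of the regulatory proteins, 0.12 and 0.08 for mitochondrial iron, 0.15 and 0.11 for heme, and 0.12 and 0.18 for other mRNAs known to carry an iron-responsive element. The ferroxidases that work with SLC40A1 were sparse. HEPH and HEPHL1 were at 0 in all 4 libraries, and CP, ceruloplasmin, was at 6.76 and 5.91 TPM in Huh7 and at 2.27 and 1.85 TPM in HepG2.

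**Figure D5:**
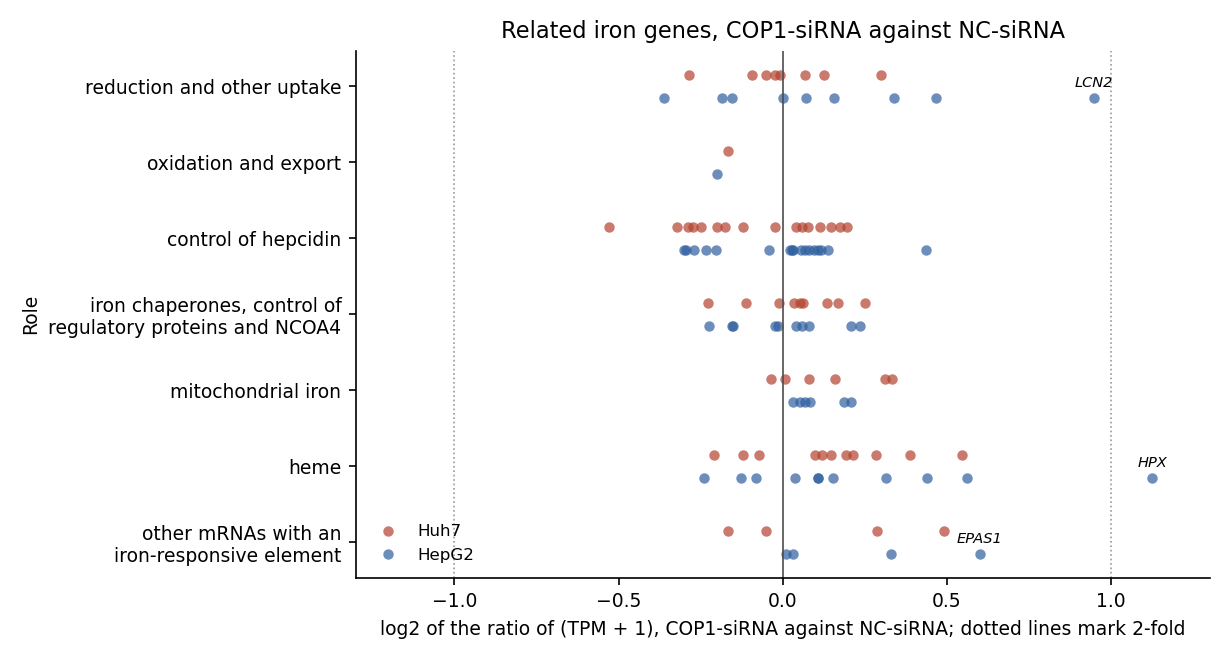
Difference with COP1-siRNA of each related gene tested, as log2 of the ratio of (TPM + 1), by role, for Huh7 (red) and HepG2 (blue), with names at 1.5-fold or more. HPX at 1.12 in HepG2 is the 1 point beyond the dotted 2-fold lines, and LCN2 at 0.95 and EPAS1 at 0.60 in HepG2 are the others named.

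The genes that control hepcidin differed between the lines far more than with the knockdown, as did genes in general. The standard deviation over all genes tested was 1.48 between the lines with NC-siRNA. With the knockdown it was 0.30 in Huh7 and 0.28 in HepG2. Of 19 tested with NC-siRNA, 7 were at least 2-fold lower in HepG2 and 3 at least 2-fold higher, and with COP1-siRNA 8 and 3 were, beside the shares of 14.7% and 27.9%, and 14.0% and 26.0%, of all genes. BMP2, a ligand that raises HAMP, was at 81.4 and 84.8 TPM in Huh7 and at 2.04 and 1.48 TPM in HepG2, log2 differences of −4.76 and −5.11. BMP6, the other main ligand, went the other way, with 0.0462 and 0.0612 TPM in Huh7 and 6.79 and 5.62 TPM in HepG2. ID1, a target of this signal, was at 916 and 757 TPM in Huh7 and at 55.9 and 48.4 TPM in HepG2.

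The co-receptor HJV was at 4.82 and 4.36 TPM in Huh7 and was listed at 0 in both HepG2 libraries, so no fold is given. HFE, which binds transferrin receptors and is mutated in hereditary hemochromatosis, was at 3.93 and 4.06 TPM in Huh7 and at 0.529 and 0.648 TPM in HepG2. ACVR1, a type I receptor, was lower in HepG2 by 1.70 and 1.72 on the log2 scale, and IL6R, the receptor for interleukin-6, by 2.13 and 1.89. FURIN, a protease that matures prohepcidin, was at 401 and 337 TPM in Huh7 and at 44.0 and 46.5 TPM in HepG2. NEO1, a partner of HJV, was at 0.309 and 0.598 TPM in Huh7 and at 22.4 and 23.6 TPM in HepG2, and ERFE at 0.367 and 0.362 TPM in Huh7 and 7.17 and 5.64 TPM in HepG2. SMAD7, an inhibitor, passed 2-fold with COP1-siRNA alone, at −1.02 against −0.88 with NC-siRNA. HAMP was lower in HepG2, as were BMP2, HJV, ID1, HFE, ACVR1, IL6R, FURIN and SMAD7, while BMP6, NEO1 and ERFE were higher. The part of these genes in the level of HAMP, and that of the general difference in liver genes, was not tested.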

How the data were processed

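RNA of 4 libraries, 1 for each line and siRNA, was grouped by the sample titles. Per the labels, FastQC 0.11.7, Trimmomatic 0.38, HISAT2 2.1.0, StringTie 2.1.3b and edgeR were used with GRCh38, without role or order. The annotation is not given in the sources used here. TPM as deposited sums to 1000000 in each library, and the deposited FPKM values are proportional to it. Deposited coverage is a gene's mean read depth, unscaled for library depth. The tables hold no read counts, so depth and counting error are unknown.

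Of the 46427 Gene IDs, 96.3% matched RefSeq of GRCh38.p14. Values on several lines of 1 ID were summed. Differences were log2 ratios of TPM plus 1 among genes with at least 1 TPM in 1 of the libraries compared, and 2-fold was the threshold. With 1 library per group no test was run within a line. A limma 3.58.1 fit (R 4.3.3, trend, Benjamini-Hochberg adjustment) took log2(TPM + 1) on siRNA and line over all 4 libraries. It covered genes with at least 1 TPM in 1 library and was added after seeing the data. It was tried on data simulated from the fit itself, which cannot show whether its assumptions hold here.

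Members and lists were chosen with earlier results of these data known. All 10 members were named. Of 68 related genes, those past 2-fold with COP1-siRNA, the 2 largest rises and falls per line, and hepcidin control genes past 2-fold between lines were named. HEPH, HEPHL1, CP and EPAS1 fall outside that rule and were named after their values were seen. GENCODE 29 transcripts were searched for elements. Alternatives were a pseudocount of 0.1, FPKM, coverage, 2 other scalings, other minimum TPM, 1 line per ID, 1.5-fold and added ferritin pseudogenes. Python 3.11.15, numpy 2.4.6, pandas 2.3.3 and matplotlib 3.10.9 were used.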

Additional observations from a re-analysis of the deposited data

Results flagged for a closer look

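In 4 members the 2 libraries of Huh7 and the 2 of HepG2 differed in opposite directions with COP1-siRNA. The difference in HepG2 minus that in Huh7, on the log2(TPM + 1) scale, was 0.24 for FTL, 0.30 for FTH1, −0.14 for ACO1 and 0.046 for IREB2. SLC11A2 had opposite signs between the lines with NC-siRNA and with COP1-siRNA, and its value with COP1-siRNA minus that with NC-siRNA was −0.26. None of these differences was tested, since no group has a second library. The standard deviation over all genes tested with COP1-siRNA was 0.30 in Huh7 and 0.28 in HepG2. It describes the difference within 1 line, not the gap between the lines. The signs of FTL, FTH1 and ACO1 were the same under every alternative, those of IREB2 in Huh7 and of SLC11A2 with NC-siRNA were not.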

How the results depend on the processing

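The number of members past 2-fold was 0 in each line with COP1-siRNA, and 5 between the lines with either siRNA, under all 10 alternatives, except that a 1.5-fold threshold gave 6 between the lines with NC-siRNA. Of 280 alternative values of members, 5 changed sign, 3 for IREB2 in Huh7 and 2 for SLC11A2 between the lines, and 0 crossed 2-fold. In HepG2 the number of related genes past 2-fold was 1 and became 2 with a pseudocount of 0.1, 3 at 1.5-fold, and 0 with FPKM or with a minimum of 5 TPM, which HPX does not reach. COP1 in Huh7 was at −1.53 and with coverage at −1.05. Calls over all genes moved by over 1.5 times in 4 settings. At 2-fold 141 genes were called in Huh7 and 135 in HepG2, and these became 390 and 372 with a pseudocount of 0.1, 57 and 39 with FPKM, 76 and 55 with a minimum of 5 TPM, and 713 and 640 at 1.5-fold. In Huh7 a minimum of 5 TPM moved the share of higher among called genes from 58.9% to 44.7%. Leaving out a library was not possible with 1 per group. The labels give no replicate numbers, so the pairing was by cell line alone. With the line as replicate block, a fit added after seeing the data, 0 members passed an adjusted p of 0.05 with COP1-siRNA, and 9 passed between the lines. Read numbers are unknown, and in HepG2 mean coverage was 0.867 and 5.00 reads per base for LCN2 and 4.42 and 7.72 for TFR2.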
